A study of Mus musculus with 9 samples.

Results

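Interferon-stimulated genes, the genes that a cell switches on when it senses type I or type II interferon, were followed across the lungs of mice given fine particulate matter (PM2.5). The members were the rows of the deposited table whose gene symbol was on a list of 42 names, and 40 were found among 18875 genes. The 2 names without a row were Mx1 and Mx2, which code for antiviral GTPases and which RefSeq annotates as transcribed pseudogenes in GRCm38.p6. The mice were wild-type animals of the inbred strain BALB/c, and mRNA of the whole lung was sequenced in 3 groups of 3 libraries. The long-term PM2.5 group was given PM2.5 into the nose at 10 mg/kg in 6 instillations spaced 3 days apart. The short-term PM2.5 group was given 1 instillation at the same dose. The PBS group was exposed to PBS (buffered saline) over the long term, so that no control matched the short-term group in duration. The labels used here give no time of lung collection. Separate mice are not named in the labels for the 3 libraries of each group, so p-values measure the spread between these libraries, which may be technical.

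Type I interferons bind the IFNAR receptor and act through a complex that contains STAT2 and IRF9 and binds the interferon-stimulated response element (ISRE). Type II interferon, IFN-gamma, acts through a separate promoter element, the gamma-activated site (GAS). The induced proteins block viral RNA and protein synthesis, sense nucleic acids, attack vacuoles that hold pathogens, and attract T cells. In the lung, epithelium, macrophages and other cells can all respond, and a whole-lung library cannot tell fewer cells of a type from less RNA per cell.

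The promoter pieces below are shown because they carry the letters that these factors are known to read, in members that differ in what they did after PM2.5. They come from RefSeq promoter windows of GRCm38.p6, which run from 250 bases before the transcription start for 300 bases in all. Of the 40 members, 32 had a window. Each piece is written 5′ to 3′ on the strand of its gene. Capitals mark the ISRE core, which is GAAA, then any 2 bases, then GAAA, and the GAS core, which is TTCNNNGAA. Each was searched on both strands, and adjoining matches can share letters.
Isg15, chr4:156200855-156200916, minus strand: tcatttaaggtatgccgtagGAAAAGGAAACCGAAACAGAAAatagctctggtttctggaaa
Oas1a, chr5:120907526-120907643, minus strand: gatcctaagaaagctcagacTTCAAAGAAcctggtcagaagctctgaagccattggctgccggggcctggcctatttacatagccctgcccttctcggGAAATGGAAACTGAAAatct
Cxcl10, chr5:92349073-92349122, minus strand: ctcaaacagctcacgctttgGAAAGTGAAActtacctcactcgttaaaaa
Ifit1, chr19:34640765-34640833, plus strand: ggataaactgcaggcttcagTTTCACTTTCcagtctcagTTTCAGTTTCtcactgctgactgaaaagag
Igtp, chr11:58199491-58199551, plus strand: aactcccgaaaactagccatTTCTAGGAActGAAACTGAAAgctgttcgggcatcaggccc
Gbp7, chr3:142530210-142530312, plus strand: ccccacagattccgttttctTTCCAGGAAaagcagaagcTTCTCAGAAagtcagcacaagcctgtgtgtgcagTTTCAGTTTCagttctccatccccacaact
Irf1, chr11:53769904-53769952, plus strand: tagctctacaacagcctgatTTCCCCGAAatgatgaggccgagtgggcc

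The ISRE core stood in the windows of 18 of the 32 members (56.2%), against 3.99% of all 27025 genes with a window. The GAS core stood in those of 9 of the 32 (28.1%), against 9.55% of all genes. The exact form GAAACTGAAA was shared by 8 members, Bst2, Gbp3, Gbp7, Ifit1, Ifit3, Igtp, Oas1a and Stat2. A match describes the letters only and is neither a bound site nor a cause.

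The libraries differed in ways that bear on every value below. The table holds TPM, a relative transcript level already divided by transcript length. From TPM the read depth cannot be recovered, so no counting error is given. Between 13829 and 13930 genes reached 1 TPM in long-term libraries, and the numbers were 12560 to 13414 for short-term PM2.5 and 13534 to 13615 for PBS. Long transcripts were low in the short-term libraries: in differences from the PBS mean, the longest 25% of genes minus the shortest 25% gave -1.28, -0.60 and -0.80 on the log2 scale in short-term libraries 1, 2 and 3, against -0.18 to -0.12 in the long-term libraries. For this reason the members that passed in a short-term comparison are given beside values corrected for transcript length and GC content. The median member lay 0.83, 0.10 and -0.08 from the PBS mean on the log2 scale in long-term libraries 1, 2 and 3. In the same measure it lay at 0.03, 0.55 and -0.08 in the short-term libraries and at -0.07, -0.09 and 0.15 in the PBS libraries. Long-term library 1 held 38 of the 40 members above the PBS mean, against 25 and 16 in long-term libraries 2 and 3, and PBS library 3 held 34. Long-term calls of interferon-related genes against PBS are therefore given with and without long-term library 1.

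**Figure D1:**
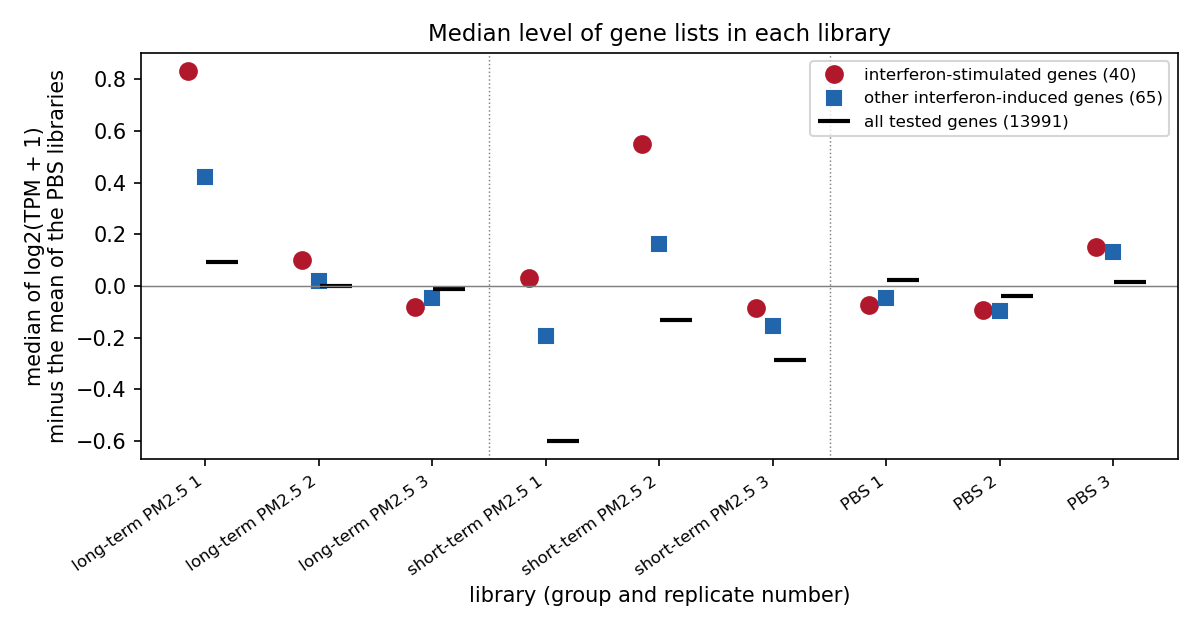
Median difference from the mean of the PBS libraries on the log2(TPM + 1) scale (vertical axis) in each of the 9 libraries (horizontal axis), for the 40 interferon-stimulated genes, 65 other interferon-induced genes and all 13991 tested genes. Long-term library 1 (0.83) and short-term library 2 (0.55) stand highest for the 40 members, and all genes lie lowest in short-term library 1 (-0.60).

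After long-term PM2.5, 2 members rose against PBS, Oas1a and Cxcl9, and none fell (limma on log2(TPM + 1), adjusted over all 13991 tested genes, threshold 0.05). That is 5% of the 40 members, beside 9.51% of all tested genes that rose and 1.72% that fell. Cxcl9 reached 1 TPM in no PBS library and entered the test only through its PM2.5 libraries. At an unadjusted p under 0.05, 8 members were higher and 1, Irf1, was lower. The median member stood at 0.30 on the log2 scale against 0.03 for all tested genes. Without long-term library 1 no member passed, beside 5.88% of all genes higher and 0.35% lower, and the median was 0.02. Without long-term library 2, PBS library 1 or PBS library 2 none passed either, and without PBS library 3 only 1 passed. The length and GC correction left both calls and added a fall of Irf1, beside 13% of all genes higher and 12.8% lower. The long-term and PBS libraries did not overlap for 5 members that were higher, Oas1a, Oasl2, Zbp1, Cxcl9 and Cxcl10, and for 1 that was lower, Irf1. All tested genes gave 25.9% and 17.4% in these directions.

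After short-term PM2.5, 10 members rose against PBS and 7 fell, while 23 did not pass. Cxcl9, tested only through its PM2.5 libraries, was among those that rose. The 25% of members that rose stood beside 11.7% of all tested genes, and the 17.5% that fell beside 40.3%. The median member was 0.19 on the log2 scale, and the median of all tested genes was -0.34, which places the members 0.53 above it. Without overlap between the short-term and PBS libraries, 10 members were higher and 8 lower, beside 14.5% and 45.8% of all tested genes. The balance of calls depended on the scaling: median-ratio scaling gave 15 higher and 2 lower, quantile normalization 17 and 3, and the length and GC correction 14 and 3. In that order the median of all genes moved to -0.049, -0.019 and -0.020. The median member lay 0.58, 0.55 and 0.36 above it. Array weights went the other way, with 11 higher and 17 lower. After the length and GC correction 23.6% of all genes were higher and 26% lower. It kept 9 of the 10 members that rose, all but Ifi27l2a, and added Oas2, Oas3, Oasl2, Rsad2 and Iigp1. It kept the falls of Irf1, Gbp7 and Trim56 and ended those of Ifit2, Cmpk2, Stat2 and Parp14. Without PBS library 1 the count that rose was 6, and the count that fell was 14 without short-term library 2. It was 3 without short-term library 1 or 3 or any 1 of the PBS libraries. The shares of all genes under array weights or with 1 library left out are not given here.

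The calls split by transcript length. Among the 20 members with shorter transcripts (around the members' median of 2669 bases), 9 rose and 1 fell after short-term PM2.5. Among the 20 with longer ones, 1 rose and 6 fell. For all tested genes the shares were 11.7% and 40.3%. The medians of the shorter and longer members were 0.39 and -0.32 as deposited, and 0.45 and 0.19 after the correction. The length trend was much the same in all genes: the Spearman correlation of transcript length with the short-term difference was -0.60 over the members. It was -0.56 over all 13761 tested genes with a length. The share of these calls that the length trend accounts for was not tested.

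**Figure D2:**
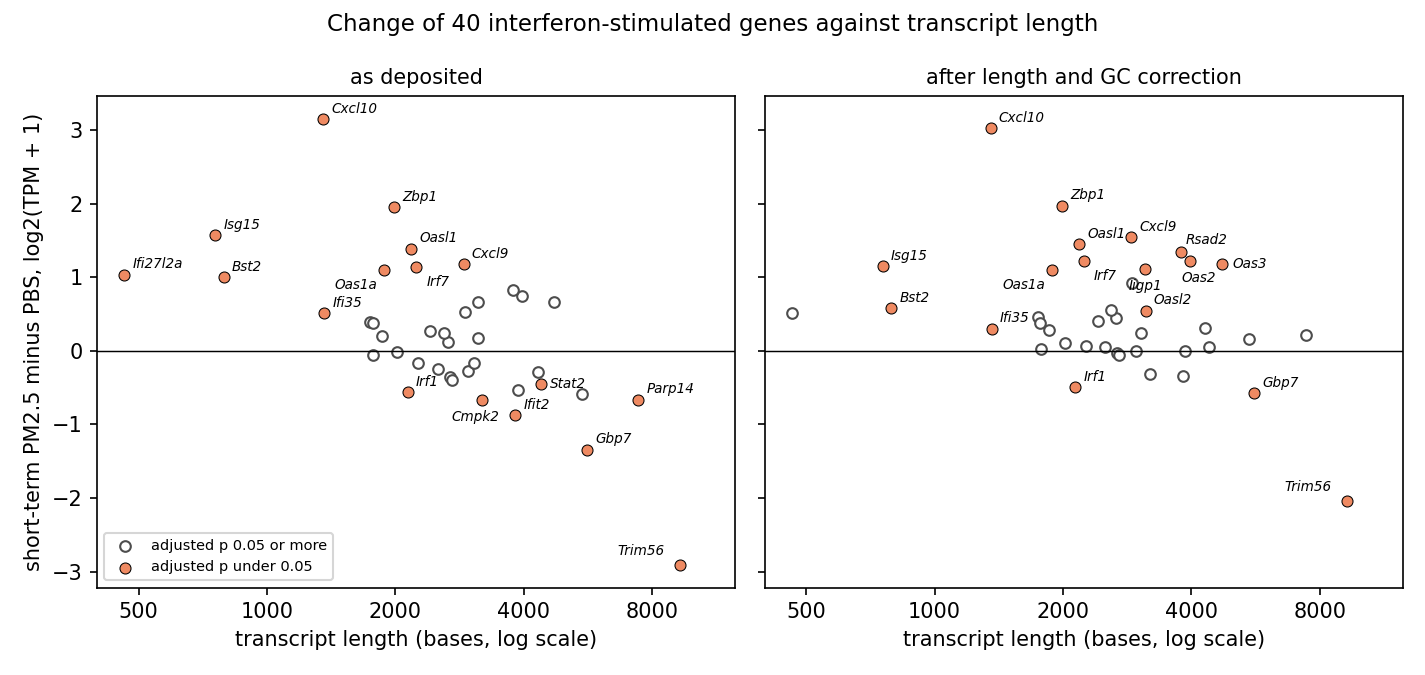
Short-term PM2.5 minus PBS on the log2(TPM + 1) scale (vertical axis) against transcript length in bases (horizontal log axis) for the 40 members, as deposited (left) and after correction for length and GC content (right). Filled points had an adjusted p under 0.05: 10 higher and 7 lower as deposited, and 14 higher and 3 lower after correction.

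Long-term against short-term PM2.5 set 6 members higher, Cmpk2, Ifih1, Gbp7, Trim56, Parp14 and Sp100, and 3 lower, Bst2, Cxcl10 and Ifi35. All tested genes gave 43.4% higher and 7.08% lower, and 15% and 7.5% of the members passed. The median member was 0.18 on the log2 scale against 0.41 for all tested genes. With the correction 3 members were higher, Cmpk2, Gbp7 and Trim56, and 7 were lower, beside 19.3% and 22.3% of all genes. Rsad2, Zbp1, Cxcl9 and Xaf1 joined the 3 lower members. Median-ratio scaling gave 3 higher and 7 lower, and quantile normalization 2 and 8. The median of all genes was then 0.078 and -0.011. The long-term and short-term libraries did not overlap for 6 members that were higher and 3 that were lower, beside 50.2% and 9.94% of all tested genes. Without long-term library 1 the counts were 2 higher and 6 lower. Without short-term library 2 they were 15 and 3, and without short-term library 3 they were 3 and 5.

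**Figure D3:**
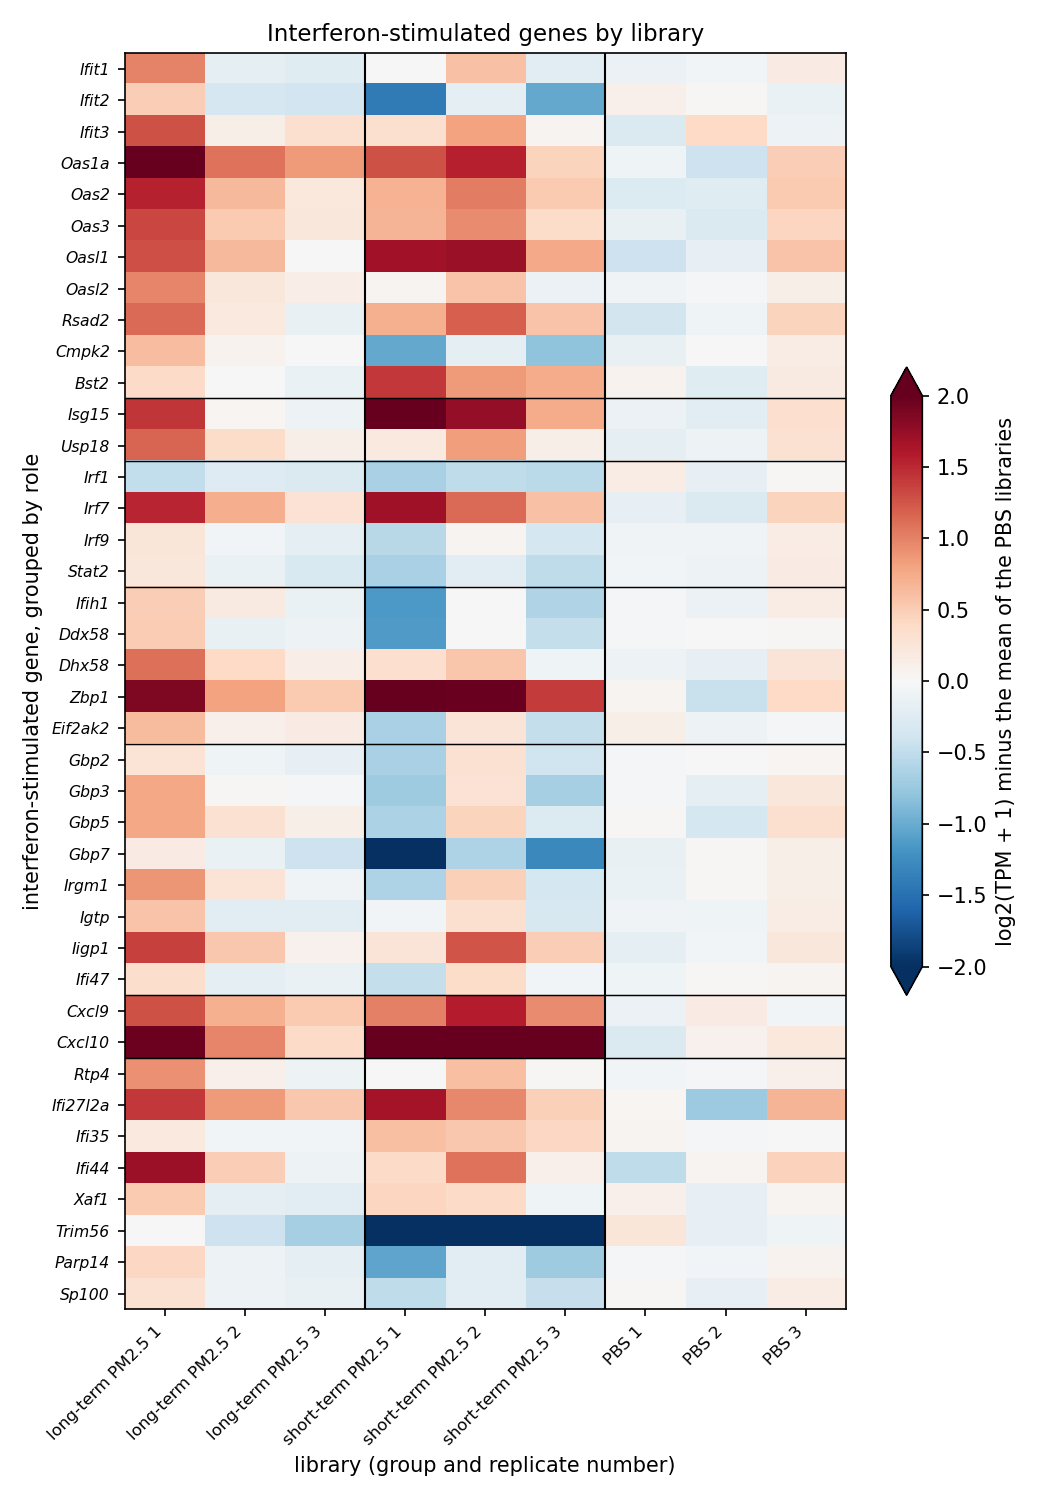
Difference from the mean of the PBS libraries on the log2(TPM + 1) scale (colour, saturated at 2 in either direction) for the 40 members (rows, grouped by role) in the 9 libraries (columns). Cxcl10 is high in all 3 short-term libraries, Trim56 is low in them, and most rows are raised in long-term library 1.

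The chemokines that draw CXCR3-bearing T and NK cells included the largest rise among the 40 members after short-term PM2.5. Cxcl10 (chromosome 5, 92346638 to 92348889, GRCm38.p6) had 6.93, 3.01 and 1.67 TPM in long-term libraries, 19.5, 26.8 and 9.44 TPM in short-term libraries and 0.67, 1.16 and 1.35 TPM in PBS libraries. Every short-term library lay above every long-term library, and every long-term library above every PBS library. Cxcl10 rose 17.5-fold in mean TPM after short-term PM2.5 against PBS (log2 difference 3.15 ± 0.41 SE, limma adjusted p = 0.000433). The difference was 3.03 with the correction, and it passed in all 22 alternatives (2.41 to 3.93). After long-term PM2.5 it was 1.11 ± 0.41 above PBS and did not pass (limma adjusted p = 0.134), and without long-term library 1 it was 0.68 above. The long-term level was 2.04 below the short-term level (limma adjusted p = 0.00392), and the corrected difference was -2.15.

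Cxcl9, which lies near Cxcl10 on chromosome 5 (92321331 to 92328079) and is best known as a target of IFN-gamma, was scarce. It had 2.05, 1.07 and 0.81 TPM in long-term libraries, 1.54, 2.76 and 1.44 TPM in short-term libraries and 0.17, 0.41 and 0.22 TPM in PBS libraries. The PBS libraries lay apart from both PM2.5 groups, which overlapped each other. Only PM2.5 libraries reached 1 TPM, the level for testing, so the calls of Cxcl9 against PBS are not independent of that filter. Cxcl9 rose after short-term PM2.5 (log2 difference 1.18 ± 0.22 SE, limma adjusted p = 0.00216) and after long-term PM2.5 (0.84 ± 0.22 SE, limma adjusted p = 0.034). The short-term difference was 1.55 with the correction, and the long-term one 0.62 without long-term library 1. At such levels the added 1 TPM of the log scale understates the fold, which was 7.17 and 4.91 in mean TPM. The long-term call was lost in 7 of 21 alternatives, among them the ones without long-term library 1, without long-term library 2 and without any 1 of the PBS libraries.

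**Figure D4:**
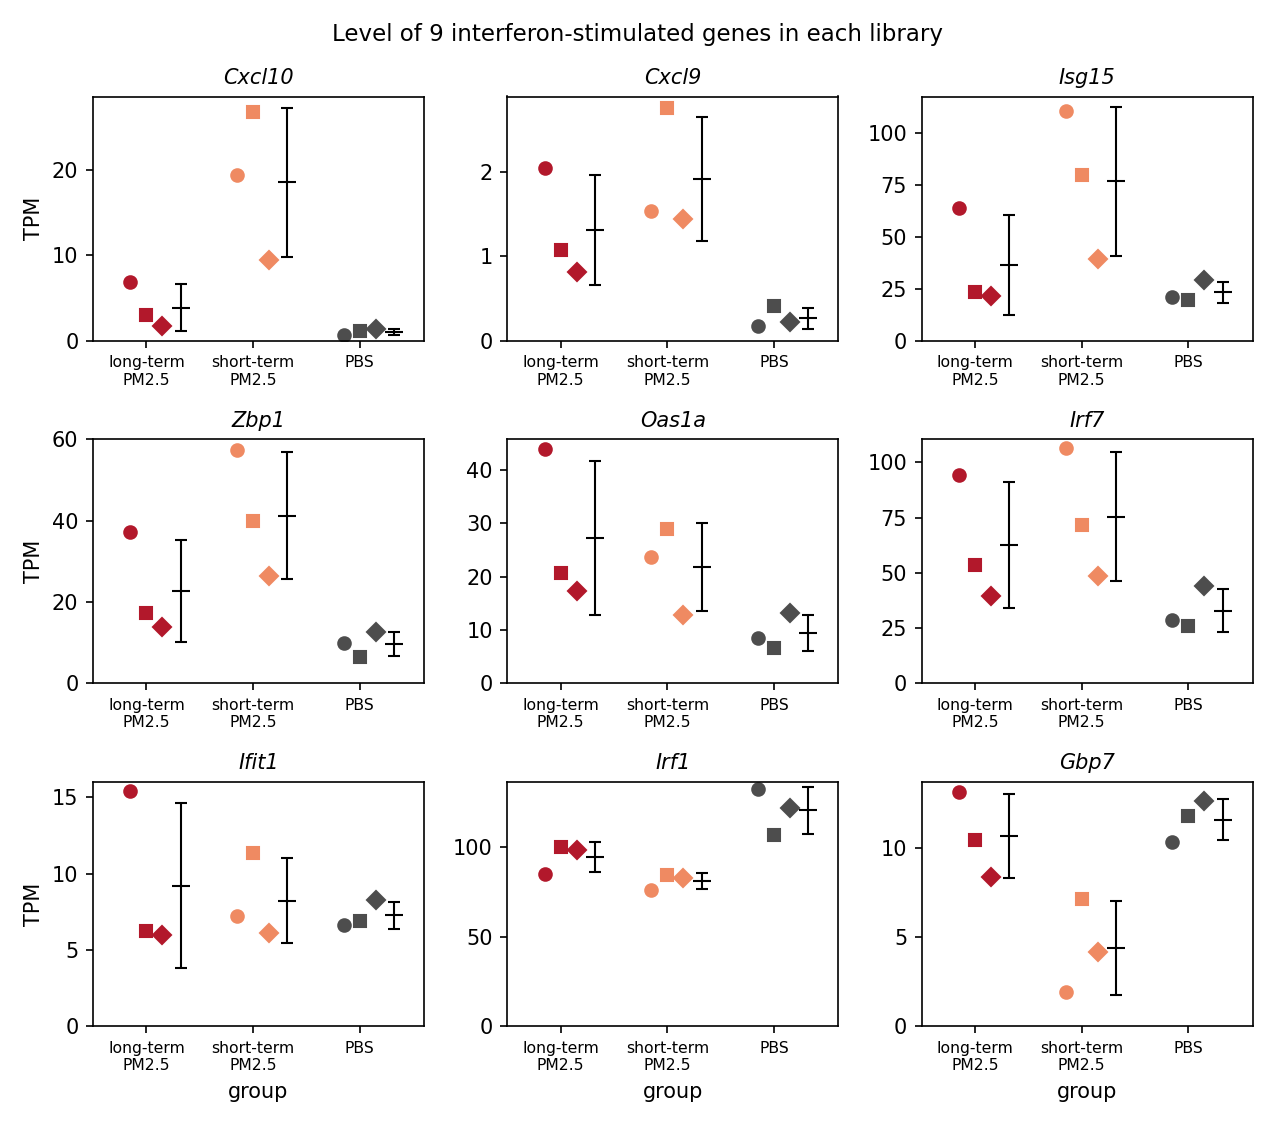
TPM (vertical axis, from 0) of 9 interferon-stimulated genes in each library of the 3 groups (horizontal axis). Points are libraries (circle, square and diamond for replicates 1, 2 and 3), and bars give the group mean ± SD (n = 3). Short-term libraries stand above all PBS libraries for Cxcl10, Cxcl9, Isg15, Zbp1 and Irf7 and below them for Irf1 and Gbp7.

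Among 11 effectors that act on viral RNA, translation or budding, 3 rose after short-term PM2.5 (Oas1a, Oasl1 and Bst2), 2 fell (Ifit2 and Cmpk2) and 6 did not pass. These rises and falls are 27.3% and 18.2%, beside 11.7% and 40.3% of all genes. The correction gave 7 higher and none lower, beside 23.6% and 26% of all genes. The oligoadenylate synthetases make 2-5A, which switches on the ribonuclease RNase L. Oas1a had 43.9, 20.6 and 17.3 TPM in long-term libraries, 23.7, 29.0 and 12.9 TPM in short-term libraries and 8.61, 6.67 and 13.3 TPM in PBS libraries. All long-term libraries lay above PBS, while short-term library 3 fell within the PBS range. It rose by 1.36 ± 0.38 SE (log2) after long-term PM2.5 (limma adjusted p = 0.0427) and by 1.10 ± 0.38 SE after short-term PM2.5 (limma adjusted p = 0.0324). The short-term difference was 1.10 with the correction too, and the long-term one was 0.97 without long-term library 1. The long-term call was lost in 8 of 22 alternatives and the short-term call in 7. Both were lost without PBS library 1 and without PBS library 2. The long-term call was also lost without long-term library 1 or 2, and the short-term call without short-term library 1 or 2.

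Oas2, a larger synthetase, had 7.90, 3.76 and 2.52 TPM in long-term libraries, 3.94, 5.20 and 3.37 TPM in short-term libraries and 1.51, 1.58 and 3.38 TPM in PBS libraries. Short-term library 3 and PBS library 3 overlapped, and so did long-term library 3. Its log2 difference after short-term PM2.5 was 0.75 ± 0.33 SE (limma adjusted p = 0.0794) as deposited and 1.22 after the correction, and it passed in 10 of 21 alternatives. Oasl1, an OAS-like protein that in mice restrains translation of Irf7, had 8.86, 5.31 and 3.05 TPM in long-term libraries, 11.9, 12.4 and 5.78 TPM in short-term libraries and 2.03, 2.61 and 4.98 TPM in PBS libraries. The short-term libraries lay above PBS and the long-term libraries overlapped it. Oasl1 rose by 1.39 ± 0.38 SE (log2) after short-term PM2.5 (limma adjusted p = 0.0119), or 1.45 with the correction, a call lost without PBS library 1 only.

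Bst2 codes for tetherin, which holds budding virus at the cell surface, and it was the most abundant of these effectors. It had 222, 171 and 154 TPM in long-term libraries, 452.5, 305 and 284 TPM in short-term libraries and 178, 143 and 191 TPM in PBS libraries. The short-term libraries stood apart from the other 6. Bst2 rose 2.03-fold in mean TPM after short-term PM2.5 (log2 difference 1.00 ± 0.20 SE, limma adjusted p = 0.00294, past the threshold in all 22 alternatives, down to 0.44), and the corrected difference was 0.58. After long-term PM2.5 it stood 0.09 from PBS and 0.91 below the short-term level (limma adjusted p = 0.00543, corrected difference -0.69).

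The IFIT proteins bind viral RNA and block its translation. Ifit1 had 15.4, 6.24 and 5.98 TPM in long-term libraries, 7.20, 11.4 and 6.08 TPM in short-term libraries and 6.62, 6.90 and 8.24 TPM in PBS libraries. Only long-term library 1 and short-term library 2 lay above the PBS range, and the groups overlapped (limma adjusted p = 0.846 for long-term and 0.761 for short-term PM2.5 against PBS). Its promoter holds the form GAAACTGAAA, as does that of Oas1a. Ifit2 had 13.1, 6.94 and 6.69 TPM in long-term libraries, 2.77, 7.84 and 3.91 TPM in short-term libraries and 9.73, 9.22 and 8.19 TPM in PBS libraries. All short-term libraries lay below PBS, while long-term library 1 was the highest of all. Ifit2 fell by 0.87 ± 0.31 SE (log2) after short-term PM2.5 (limma adjusted p = 0.0388), but 12 of 22 alternatives lost the call, and the corrected difference was -0.35.

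Cmpk2, a mitochondrial nucleotide kinase whose gene neighbours Rsad2, had 16.5, 10.9 and 10.3 TPM in long-term libraries, 4.60, 9.07 and 5.53 TPM in short-term libraries and 9.28, 10.3 and 11.7 TPM in PBS libraries. The short-term libraries lay below all others. Its fall after short-term PM2.5 (-0.67 ± 0.24 SE on the log2 scale, limma adjusted p = 0.0392) was lost in 15 of 22 alternatives and was -0.31 with the correction. The long-term level was 0.89 above the short-term one (limma adjusted p = 0.0129), or 0.42 with the correction, and that call was lost in 5 of 22 alternatives. Ifit3, Oas3, Oasl2 and Rsad2 passed in no comparison as deposited, and Rsad2, which codes for viperin, stood higher in all short-term libraries (3.47 to 5.91 TPM) than in the PBS libraries (1.35 to 3.12 TPM). Reads of Ifit1, Ifit3, Oas1a, the Oasl genes and the Gbp, Irgm1, Iigp1, Ifi27l2a and Sp100 genes can be shared with near-identical copies, so how the authors' counting split them is uncertain. Whether counting used strand is not stated either.

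ISG15, a ubiquitin-like protein that is joined to other proteins, and USP18, the protease that removes it, were both measured, and Isg15 rose after short-term PM2.5. Isg15 (chromosome 4, 156199424 to 156200818) had 63.9, 23.6 and 21.5 TPM in long-term libraries, 111, 79.9 and 39.2 TPM in short-term libraries and 21.1, 19.8 and 29.2 TPM in PBS libraries. All short-term libraries lay above PBS, and of the long-term libraries only library 1 did. Isg15 rose 3.28-fold in mean TPM after short-term PM2.5 (log2 difference 1.57 ± 0.43 SE, limma adjusted p = 0.0126). The correction gave 1.15, and with short-term library 1 also left out the call was lost, the only loss in 22 alternatives. Usp18 ranged from 11.4 to 24.7 TPM in the long-term, 11.3 to 19.3 TPM in the short-term and 8.92 to 13.0 TPM in PBS libraries, and did not pass.

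Of the 4 transcription factors of the pathway, Irf7 rose after short-term PM2.5, Irf1 and Stat2 fell and Irf9 did not pass. Among all genes 11.7% rose and 40.3% fell. With the correction 1 was higher and 1 lower, beside 23.6% and 26% of all genes, and Stat2 no longer passed. IRF7 amplifies the type I response. Irf7 (chromosome 7, 141263183 to 141266499) had 94.5, 53.7 and 39.6 TPM in long-term libraries, 106, 71.5 and 48.6 TPM in short-term libraries and 28.5, 26.2 and 44.3 TPM in PBS libraries. The short-term libraries cleared the PBS range, PBS library 3 included, and long-term library 3 did not. Irf7 rose by 1.14 ± 0.34 SE (log2) after short-term PM2.5 (limma adjusted p = 0.0196), or 1.22 with the correction, a call lost without PBS library 1 or 2. After long-term PM2.5 it was 0.85 ± 0.34 SE above PBS (limma adjusted p = 0.171), and 0.51 without long-term library 1.

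IRF1 is induced mainly by IFN-gamma and drives Gbp and chemokine genes. Irf1 (chromosome 11, 53770014 to 53778374) had 85.0, 100.3 and 98.3 TPM in long-term libraries, 75.9, 84.4 and 82.5 TPM in short-term libraries and 133, 107 and 122 TPM in PBS libraries. It lay below PBS in all 6 PM2.5 libraries. The fall after short-term PM2.5 was 0.67-fold in mean TPM (-0.56 ± 0.12 SE on the log2 scale, limma adjusted p = 0.00389), it was -0.50 with the correction, and of 22 alternatives only median-ratio scaling lost it (-0.21). After long-term PM2.5 the difference was -0.34 ± 0.12 SE (limma adjusted p = 0.103), and 8 of 22 alternatives passed, the length and GC correction among them (-0.52). Without long-term library 1 it was -0.27.

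STAT2 works with IRF9 in the type I response. Stat2 had 32.2, 24.8 and 22.0 TPM in long-term libraries, 17.1, 23.5 and 19.0 TPM in short-term libraries and 26.4, 25.3 and 30.7 TPM in PBS libraries. The short-term libraries lay below PBS and overlapped the long-term ones. The fall of Stat2 after short-term PM2.5 (-0.45 ± 0.17 SE on the log2 scale, limma adjusted p = 0.0474) was lost in 16 of 22 alternatives and turned to 0.050 with the correction. Irf9 ranged from 37.9 to 51.9 TPM in the long-term, 29.3 to 45.5 TPM in the short-term and 41.3 to 48.4 TPM in PBS libraries.

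Of 5 members that sense nucleic acids, the kinase PKR among them, 1 rose after short-term PM2.5, and none passed after long-term PM2.5. Among all tested genes 11.7% rose and 40.3% fell after short-term PM2.5, and 9.51% and 1.72% after long-term PM2.5. ZBP1 binds Z-form nucleic acid and can start necroptosis. Zbp1 (chromosome 2, 173206612 to 173218959) had 37.2, 17.2 and 14.0 TPM in long-term libraries, 57.5, 39.9 and 26.4 TPM in short-term libraries and 9.85, 6.62 and 12.7 TPM in PBS libraries. Both PM2.5 groups lay above every PBS library. Zbp1 rose 4.25-fold in mean TPM after short-term PM2.5 (log2 difference 1.95 ± 0.37 SE, limma adjusted p = 0.00239), in all 22 alternatives (1.32 to 2.29), with 1.97 after the correction. After long-term PM2.5 it was 1.07 ± 0.37 SE above PBS (limma adjusted p = 0.105, past the threshold in 5 of 22 alternatives), and 0.67 without long-term library 1.

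The cytosolic RNA sensors passed in neither comparison with PBS. Ddx58, which codes for RIG-I, had 25.4, 15.8 and 16.4 TPM in long-term libraries, 7.52, 17.5 and 12.4 TPM in short-term libraries and 17.3, 17.6 and 18.0 TPM in PBS libraries. Short-term libraries 1 and 3 were the lowest, and short-term library 2 overlapped PBS. Ddx58 passed in no comparison (limma adjusted p = 0.11 for short-term PM2.5 against PBS). Ifih1, which codes for MDA5, had 13.6, 10.8 and 8.41 TPM in long-term libraries, 3.65, 9.42 and 5.85 TPM in short-term libraries and 9.18, 8.55 and 10.4 TPM in PBS libraries. Only short-term libraries 1 and 3 stood below all others. The long-term level of Ifih1 was 0.76 ± 0.27 SE above the short-term one on the log2 scale (limma adjusted p = 0.0393), lost in 16 of 22 alternatives and -0.019 after the correction. Dhx58 (LGP2, a regulator of both) and Eif2ak2 (PKR, which stops translation) did not pass.

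The 8 guanylate-binding proteins and immunity-related GTPases are IFN-gamma-induced enzymes, some of which attack pathogen-holding vacuoles. They gave no rise in either comparison with PBS as deposited. Gbp7 alone fell, after short-term PM2.5. That is 12.5% lower, while 11.7% of all genes rose and 40.3% fell. After long-term PM2.5 none passed, beside 9.51% of all genes higher and 1.72% lower. With the correction Iigp1 was higher and Gbp7 lower after short-term PM2.5, or 12.5% each, beside 23.6% and 26% of all genes. Gbp7 (chromosome 3, 142530336 to 142550151) had 13.2, 10.5 and 8.42 TPM in long-term libraries, 1.91, 7.18 and 4.15 TPM in short-term libraries and 10.4, 11.8 and 12.7 TPM in PBS libraries. The short-term libraries lay below the other 6. The log2 difference from PBS was -1.34 ± 0.32 SE (limma adjusted p = 0.0065), it passed in all 22 alternatives, and the correction brought it to -0.57. The long-term level was 1.22 above the short-term one (limma adjusted p = 0.0113), and 0.42 with the correction.

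Gbp2, in the same gene cluster, had 39.5, 30.5 and 28.6 TPM in long-term libraries, 20.2, 40.2 and 24.3 TPM in short-term libraries and 31.3, 32.6 and 33.0 TPM in PBS libraries. The ranges overlapped, and Gbp2 passed in no comparison. Igtp, also called Irgm3, had 35.9, 20.1 and 20.4 TPM in long-term libraries, 22.8, 29.8 and 18.9 TPM in short-term libraries and 22.6, 22.4 and 26.4 TPM in PBS libraries, and its mean log2 difference from PBS was 0.04 after long-term and -0.02 after short-term PM2.5.

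Iigp1, an IRG enzyme known for its action on Toxoplasma vacuoles in mice, had 23.5, 12.8 and 9.12 TPM in long-term libraries, 10.4, 21.8 and 12.4 TPM in short-term libraries and 7.46, 8.17 and 10.2 TPM in PBS libraries. The short-term libraries lay just above PBS, by 0.67 ± 0.33 SE on the log2 scale (limma adjusted p = 0.109), and the corrected difference was 1.11. It passed in 8 of 22 alternatives. Gbp3, Gbp5, Irgm1 and Ifi47 passed in no comparison, with log2 differences of -0.36 to 0.40 from PBS.

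Of the 8 remaining members, 2 rose and 2 fell after short-term PM2.5. That is 25% each, beside 11.7% and 40.3% of all genes. Ifi35, an interferon-induced leucine zipper protein, had 66.7, 56.0 and 56.0 TPM in long-term libraries, 88.8, 84.9 and 78.2 TPM in short-term libraries and 60.8, 56.6 and 57.8 TPM in PBS libraries. The short-term libraries stood apart with little spread. Ifi35 rose 1.44-fold in mean TPM after short-term PM2.5 (log2 difference 0.52 ± 0.11 SE, limma adjusted p = 0.00452) and was 0.49 lower after long-term than after short-term PM2.5 (limma adjusted p = 0.00661), in all 22 alternatives each. The corrected differences were 0.30 and -0.49. Ifi27l2a, a small protein of the ISG12 family with a transcript of 463 bases, had 370, 250 and 201 TPM in long-term libraries, 440, 271 and 193 TPM in short-term libraries and 142, 83.4 and 222 TPM in PBS libraries. PBS library 3 overlapped both PM2.5 groups, and its short-term rise of 1.04 ± 0.38 SE (log2, limma adjusted p = 0.04) was lost in 11 of 22 alternatives, the correction among them (0.51).

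Trim56, a ubiquitin ligase that promotes STING signalling, had the longest transcript of the members, 9279 bases, and the deepest fall. Trim56 (chromosome 5, 137111286 to 137116462) had 17.4, 12.8 and 10.7 TPM in long-term libraries, 0.51, 3.12 and 1.38 TPM in short-term libraries and 20.9, 15.5 and 16.5 TPM in PBS libraries. The short-term libraries were far below the other 6. Its log2 difference from PBS was -2.91 ± 0.32 SE (limma adjusted p = 0.000215), it was -2.04 with the correction, and it passed in all 22 alternatives. The long-term level was 2.55 above the short-term one (limma adjusted p = 0.000393), or 1.71 with the correction. How far its length bears on the corrected value as well was not tested.

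Parp14, an ADP-ribosyltransferase with a transcript of 7417 bases, had 21.8, 14.9 and 14.0 TPM in long-term libraries, 7.18, 13.7 and 9.42 TPM in short-term libraries and 15.8, 15.5 and 16.9 TPM in PBS libraries. The short-term libraries were lowest as deposited, -0.66 ± 0.23 SE from PBS on the log2 scale (limma adjusted p = 0.0316), while the corrected difference was 0.22. The long-term level was 0.71 above the short-term one (limma adjusted p = 0.0256), and the corrected difference was -0.16. Sp100, a nuclear body protein, had 59.0, 44.3 and 42.9 TPM in long-term libraries, 33.3, 40.7 and 34.2 TPM in short-term libraries and 48.2, 42.4 and 52.8 TPM in PBS libraries. The short-term libraries lay below the other 6. The long-term level of Sp100 was 0.41 ± 0.15 SE above the short-term one (log2, limma adjusted p = 0.0446), lost in 18 of 22 alternatives and -0.075 with the correction. Rtp4, Ifi44 and Xaf1 did not pass as deposited.

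The promoter matches were counted by call. After short-term PM2.5, the ISRE core stood in 4 of 8 members that rose and had a window, in 2 of 6 that fell and in 12 of 18 that did not pass. The GAS core stood in 3, 3 and 3 of these. Isg15 and Cxcl10, which rose, carry the ISRE core, as do Ifit1 and Igtp, which did not pass, and Gbp7, which fell.

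The genes that act before and after interferon were read from lists of the pathway. Of 13 listed interferon ligands and inducing cytokines, 5 had a row and 2 passed the filter on low values. Il12a, a subunit of IL-12 that induces IFN-gamma, fell after short-term PM2.5 (-0.63 on the log2 scale, limma adjusted p = 0.00749, corrected -0.72), and none rose against PBS. Il18, the other gene tested, did not pass as deposited (-0.79, limma adjusted p = 0.053). It was lower with the correction (-1.03, limma adjusted p = 0.00367). Among all genes 40.3% fell, or 26% with the correction. Of 11 receptors and kinases, none passed after long-term PM2.5, and Jak1, Tyk2, Ifnlr1 and Ifngr1 fell after short-term PM2.5, which is 36.4% of the list beside 40.3% of all genes. With the correction 3 were higher and 1, Ifngr1 (-0.39), was lower, beside 23.6% and 26% of all genes. Jak1, the kinase shared by these receptors, was at -0.67 as deposited and 0.0049 with the correction.

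Of 15 genes of the sensing machinery, 5 rose after long-term PM2.5 and none fell, which is 33.3% higher beside 9.51% of all genes. They were Sting1, the adaptor for cytosolic DNA (0.88, limma adjusted p = 0.00186), Ikbke, a kinase that activates IRF3 and IRF7 (0.77), Irf5 (0.60) and the endosomal receptors Tlr7 (0.95) and Tlr9 (0.69), all on the log2 scale. Without long-term library 1 only Sting1 passed (0.84), beside 5.88% of all genes, and the others lay at 0.67 for Ikbke, 0.56 for Irf5, 0.72 for Tlr7 and 0.56 for Tlr9. After short-term PM2.5, Sting1 (1.14, corrected 1.29), Myd88 (0.81, corrected 0.82), Irf5 (0.55, corrected 0.64) and Ikbke (0.48, corrected 0.77) rose. That is 26.7% of the list beside 11.7% of all genes. Mavs, Tlr9, Trim25, Tlr3 and Tlr8 fell, with log2 differences of -0.91 to -0.64, or 33.3% of the list beside 40.3% of all genes. Corrected, they stood at -0.41, -0.45, 0.068, -0.24 and -0.43 in that order, and the list held 5 higher and 4 lower, beside 23.6% and 26% of all genes.

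Of 9 negative regulators, Socs3, which blocks JAK signalling, rose after long-term PM2.5 (0.80 on the log2 scale, limma adjusted p = 0.009), and also without long-term library 1 (0.83). That is 11.1% of the list beside 9.51% of all genes. After short-term PM2.5, 4 rose, which is 44.4% beside 11.7% of all genes. They were Socs3 (1.69, limma adjusted p = 8.9e-05, corrected 1.86), Socs1 (0.82, corrected 1.06), the phosphatase Ptpn2 (0.71, corrected 1.07) and the DNA exonuclease Trex1 (0.74, corrected 0.43). Pias1, Ptpn11 and Adar (33.3%, beside 40.3% of all genes) fell as deposited and did not pass with the correction. The correction gave 6 higher and none lower, beside 23.6% and 26% of all genes. Long-term minus short-term PM2.5 gave -0.88 for Socs3 and -0.89 for Socs1, or -1.09 and -1.15 with the correction.

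Another 65 interferon-induced genes were tested. After long-term PM2.5, 5 rose and none fell, and after short-term PM2.5, 15 rose and 15 fell, or 20 and 7 with the correction. The 7.69% that rose after long-term PM2.5 stood beside 9.51% of all genes. After short-term PM2.5 the 23.1% higher and 23.1% lower stood beside 11.7% and 40.3%, and the corrected 30.8% and 10.8% beside 23.6% and 26%. Ifitm1, whose protein stops viruses from entering cells, rose after long-term PM2.5 (1.25 on the log2 scale, limma adjusted p = 0.00019) and after short-term PM2.5 (1.56, limma adjusted p = 3.05e-05, corrected 1.24). Lgals3bp (0.97), Casp4 (0.87), Tgtp1 (1.46) and Slfn9 (0.93) made up the other long-term rises. Without long-term library 1 only Ifitm1 (1.18) and Lgals3bp (0.85) of these passed, while Casp4 (0.76), Tgtp1 (1.15) and Slfn9 (0.72) did not. Among the short-term rises, Ifitm3 (1.12, corrected 0.69), Ifitm2 (0.85, corrected 0.38) and Slfn2 (1.43, corrected 1.43) had small p, and among the falls Tnfsf10 (-1.62), Helz2 (-0.99), Gbp4 (-1.33), Slfn5 (-1.01) and Znfx1 (-0.71). Only Tnfsf10 and Gbp4 of these falls passed with the correction. In long-term library 1, 61 of the 65 lay above the PBS mean, against 35 and 25 in long-term libraries 2 and 3.

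Markers of blood and lung cell types were read in the same groups. Among all tested genes 9.51% rose and 1.72% fell after long-term PM2.5, and 11.7% rose and 40.3% fell after short-term PM2.5. The 10 neutrophil markers summed to 816, 484 and 655 TPM in long-term libraries, 1033, 1549 and 1142 TPM in short-term libraries and 374, 401 and 626 TPM in PBS libraries, and 7 of them rose after short-term PM2.5. The 10 markers of monocytes and interstitial macrophages summed to 681 to 993 TPM in the long-term, 671 to 707 TPM in the short-term and 391 to 483 TPM in PBS libraries, with 5 higher after long-term PM2.5 and 6 higher and 1 lower after short-term PM2.5. Long-term library 1 had the largest monocyte and macrophage sum. It also had the largest B cell sum of all libraries (344 TPM). Within the long-term group it had the largest neutrophil and T and NK cell sums (816 and 168 TPM). Of 10 alveolar macrophage markers, 7 rose after long-term PM2.5 (4 without long-term library 1), while 1 rose and 4 fell after short-term PM2.5. The short-term counts are 10% and 40%, near the shares of all genes. With the correction 1 was higher and 6 were lower, beside 23.6% and 26% of all genes. The sums of these markers were 1369 to 1660 TPM in long-term, 466 to 642 TPM in short-term and 736 to 956 TPM in PBS libraries. Of 10 endothelial markers, 5 fell after long-term PM2.5 and 7 after short-term PM2.5, and none rose. With the correction 10 and 8 fell, beside 12.8% and 26% of all genes. As deposited without long-term library 1 the long-term count was 1, beside 0.35% of all genes. The endothelial sums were 2907 to 3215 TPM in long-term, 3156 to 3678 TPM in short-term and 4242 to 4565 TPM in PBS libraries. Of 10 airway epithelial markers, 7 rose after long-term PM2.5, and 1 rose and 2 fell after short-term PM2.5. The airway sums went another way: 157443 to 181620 TPM in long-term libraries, within the PBS range of 148805 to 185007 TPM. In short-term libraries they were lower, 108992 to 130641 TPM. Plasmacytoid dendritic cells are known as strong makers of type I interferon. Of their 9 tested markers, none passed after long-term PM2.5 as deposited, and none rose and 1 fell after short-term PM2.5. With the correction 1 was higher and 1 lower after short-term PM2.5, beside 23.6% and 26% of all genes. Their sums were 219 to 265 TPM, 156 to 236 TPM and 234 to 266 TPM in the long-term, short-term and PBS libraries. Of 12 T and NK cell markers, none passed after long-term PM2.5, and 1 rose and 2 fell after short-term PM2.5. The 9 tested B cell markers gave 1 rise after long-term PM2.5, and 1 rise and 2 falls after short-term PM2.5. Conventional dendritic cell markers, 10 in all, gave 1 rise after long-term PM2.5, and 3 rises and 2 falls after short-term PM2.5. Without long-term library 1 neither list held a long-term rise. With the correction neither list held a short-term fall, beside 26% of all genes. It then gave 1 B cell marker and 4 conventional dendritic cell markers higher after short-term PM2.5, beside 23.6% of all genes. The part of these cell types in the levels of the interferon-stimulated genes was not tested. Alveolar epithelial markers, which check the labelled tissue, summed to at least 39443 TPM in every library. The sums were 51278 to 54541 TPM in long-term and 51500 to 51661 TPM in PBS libraries. They were lower in short-term libraries, 39443 to 43841 TPM.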

How the data were processed

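Messenger RNA was selected from whole-lung RNA with oligo(dT) beads, and libraries were treated with duplex-specific nuclease, which trims abundant sequences, before sequencing on DNBSEQ, per the labels' protocols. The authors deposited 1 table of TPM values for 18875 genes in 9 libraries. HISAT2, Bowtie2, RSEM and DESeq2 are named without roles or versions, and GRCm38.p6 is named for 8 of the 9 samples, per the submitters' processing notes. Read depth is not in the table, so precision was judged from the spread of 3 libraries.

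Values were taken as log2(TPM + 1) and fitted over the 3 groups with limma 3.58.1 (R 4.3.3), with eBayes moderation and an intensity trend, on the 13991 genes that reached 1 TPM in 3 or more libraries. All 40 members passed this filter, Cxcl9 only through PM2.5 libraries. The two-sided p-values were adjusted by Benjamini-Hochberg across the whole tested table, with a threshold of 0.05. A single-gene exact permutation test of 3 against 3 libraries cannot go below p = 0.1. Fold changes understate those of low genes. The length and GC correction subtracts from each library natural splines (5 degrees of freedom each) in transcript length and GC content of the longest protein-coding GENCODE M21 transcript, and leaves out 230 tested genes without one. The code was tested on simulated data. Python 3.11.15 was used for sequences and figures.

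Values in every library are given for members past the threshold in a comparison and for Ifit1, Isg15, Irf7, Irf1, Oas2, Ddx58, Zbp1, Gbp2, Igtp, Iigp1, Cxcl9 and Cxcl10. Pathway genes are named when past the threshold, at most the 5 with the smallest p per list, direction and comparison, and not all are printed. Members, lists and corrections were chosen with earlier results of these data known. Alternatives were other scalings, pseudocount and filters, other variance models, a replicate block and each library left out.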

Additional observations from a re-analysis of the deposited data

Results flagged for a closer look

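For 9 members the change after long-term PM2.5 differed from that after short-term PM2.5 by a test of the difference itself (limma, log2 scale, long-term minus short-term, adjusted over all tested genes). Higher after long-term PM2.5 were Trim56 (2.55), Gbp7 (1.22), Cmpk2 (0.89), Ifih1 (0.76), Parp14 (0.71) and Sp100 (0.41). Lower were Cxcl10 (-2.04), Bst2 (-0.91) and Ifi35 (-0.49). With the length and GC correction Trim56 stood at 1.71, Gbp7 at 0.42 and Cmpk2 at 0.42, Cxcl10 at -2.15, Bst2 at -0.69 and Ifi35 at -0.49. Ifih1 (-0.019), Parp14 (-0.16) and Sp100 (-0.075) changed sign, and their calls were lost in 16, 9 and 18 of 22 alternatives. Both changes are taken against the same PBS libraries, and among all tested genes 43.4% were higher and 7.08% lower.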

How the results depend on the processing

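In counts higher and lower, long-term PM2.5 against PBS had 2 and 0, short-term PM2.5 against PBS 10 and 7, and the long-term against the short-term group 6 and 3. Array weights gave 8 and 2, 11 and 17, and 20 and 5, in that order of comparisons. The length and GC correction gave 2 and 1, 14 and 3, and 3 and 7, with a median of -0.18 for the long-term against the short-term group, and median-ratio scaling gave 2 and 0, 15 and 2, and 3 and 7, also with -0.18. Quantile normalization gave 1 and 1, 17 and 3, and 2 and 8. No filter gave 1 and 0, 8 and 4, and 4 and 3, a mean TPM of at least 5 gave 0 higher after long-term PM2.5, and the 2 compared groups alone gave 4 and 1, 11 and 5, and 3 and 3. The correction without long-term library 1 gave 0 and 1, 16 and 4, and 1 and 16, with a median of -0.32 for the long-term against the short-term group, and without short-term library 1 it gave 3 and 1, 11 and 3, and 1 and 4. These last 2 were chosen after seeing the data. The shares of all genes called are not given for most of these settings, and the scalings moved the median of all genes too.

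Leaving out each library in turn gave 0 to 3 higher and 0 to 1 lower for long-term PM2.5 against PBS (median 0.02 to 0.46), 6 to 13 and 3 to 14 for short-term PM2.5 against PBS (median -0.01 to 0.31), and 2 to 15 and 3 to 6 for the long-term against the short-term group (median -0.13 to 0.39). The replicate numbers did not pair the samples: correlations of same-numbered libraries ran from -0.29 to 0.26, and 0, 2 and 2 of 6 libraries correlated best with their own number in the 3 comparisons. With the number as a replicate block, the counts were 1 and 0, 10 and 3, and 4 and 5, and with the block and the correction 3 and 1, 16 and 3, and 2 and 7, with a median of -0.18 for the long-term against the short-term group.

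Some differences changed sign with the length and GC correction. For short-term PM2.5 against PBS, Stat2 became 0.050, also with the block and without long-term library 1, and Parp14 became 0.22 in these and 0.15 without short-term library 1. For the long-term against the short-term group, Parp14 became -0.16, also with the block, and -0.30 and -0.10 without long-term library 1 and without short-term library 1. Ifih1 became -0.019, also with the block and without short-term library 1, and -0.11 without long-term library 1, and Sp100 became -0.075, also with the block, and -0.16 without long-term library 1. Ifit1, Igtp and Oas2 became -0.42, -0.25 and -0.50 with the correction on all libraries. They stood at -0.76, -0.47 and -0.85 with the correction and without long-term library 1. The cause was not tested beyond the length trend given above. The number of libraries, 3 a group, and the unknown read depth limit all of these values.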

Other observations

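Of the interferon genes listed, Ifnb1 and Ifng had a row in the table, and the others were not analysed here. Ifnb1, which codes for interferon beta, was listed at 0 in every library but long-term library 2 (0.11 TPM), and neither it nor Ifng passed the filter on low values. The summed level of the 40 members was 1771, 1187 and 1053 TPM in long-term libraries and 1757, 1595 and 1162 TPM in short-term libraries. In PBS libraries it was 1049, 919.6 and 1224 TPM. Long-term libraries 2 and 3 and short-term library 3 fell within the PBS range.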
